A study of Mus musculus with 9 samples.

Results

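The genes described here are 43 genes of ribosome biogenesis and RNA polymerase I transcription, measured by RNA sequencing in differentiated C2C12 muscle fibres. They were taken from a list of 44 gene symbols that names the transcription factor Myc and genes of 8 roles in ribosome assembly. Of the 24063 gene symbols in the tables, 43 matched the list, and all 43 were among the 14006 genes with enough counts to be tested. Utp4 was not found under that symbol, and its older symbol Cirh1a is described with the other genes of the small subunit processome. The smallest count of any of the 43 genes in any library was 359 (Wdr74), and the largest was 27969 (Ncl).

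C2C12 is an established mouse myoblast line whose cells stop dividing and fuse into multinucleated fibres when serum is low. All libraries came from wild-type C2C12 cells differentiated in DMEM with 2% fetal bovine serum and are labelled day 3. The 3 1C-MIM libraries (One-Carbon Metabolite Induced Medium) came from fibres supplied with 6 metabolites that belong to the one-carbon network. The 3 scramble libraries came from fibres supplied with 6 metabolites that do not, and the 3 control libraries from fibres in normal medium. The labels name neither the metabolites nor their doses. All groups are of a single cell line, and no label tells whether a group's libraries are separate cultures. The p-values therefore cover the spread between libraries alone, and that spread may be technical.

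A ribosome is made in the nucleolus. RNA polymerase I copies the ribosomal DNA repeats into a long precursor, on which the small subunit processome and the large subunit assembly factors gather while small nucleolar ribonucleoproteins (snoRNPs) guide methylation and pseudouridylation of the RNA. MYC is a transcription factor known to act on many genes of this pathway, and ribosome production is known to accompany growth of muscle fibres.

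Counts totalled 29.0 to 33.2 M per library with 1 transcript for each gene. Levels are in CPM, the counts scaled to the normalized library size, and fold changes are log2 values with their standard errors (SE). Rose and fell are used only of genes called by edgeR's quasi-likelihood test, at a p below 0.05 after adjustment over all 14006 genes. Control replicate 1 stood somewhat apart for these genes. In it 35 of the 43 genes were lower than the mean of control replicates 2 and 3. The median log2 difference was -0.11, against 0 over all genes. The same difference was 0.02 in 1C-MIM and 0 in scramble.

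Genes of ribosome biogenesis were mostly higher in 1C-MIM fibres. Against control, 30 of the 43 genes rose (69.8%), 1 fell and 12 were not called, where 22.9% of all tested genes rose and 24.3% fell. Against scramble, 32 rose (74.4%), 1 fell and 10 were not called, where 22.9% of all tested genes rose and 23.2% fell. The median log2 fold change of the 43 genes was 0.28 against control and 0.32 against scramble, beside -0.01 and 0 over all tested genes. These comparisons share the 1C-MIM libraries. The gene that fell was Taf1d, and without control replicate 1 Npm1 and Ltv1 were lower as well, 3 in all against control. The changes were small: the rises spanned 1.14 to 1.69-fold against control and 1.14 to 1.75-fold against scramble, and 3 genes (Nop2, Rrp12 and Bysl) reached 1.5-fold in both.

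Between single libraries, 1C-MIM and control did not overlap for 35 of the 43 genes (55.5% of all tested genes), and 1C-MIM and scramble did not overlap for 39 (59.5% of all tested genes). All 3 1C-MIM libraries lay above all 6 others for 34 of the 43 genes, as they did for 24.3% of all tested genes. They lay below all 6 others for 1 gene, Taf1d, as for 24.6% of all tested genes. The 8 genes with neither order were Dimt1, Ltv1, Ncl, Nob1, Npm1, Ubtf, Wdr12 and Wdr74. In bulk RNA, fewer cells of a type and less RNA per cell cannot be told apart.

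**Figure D1:**
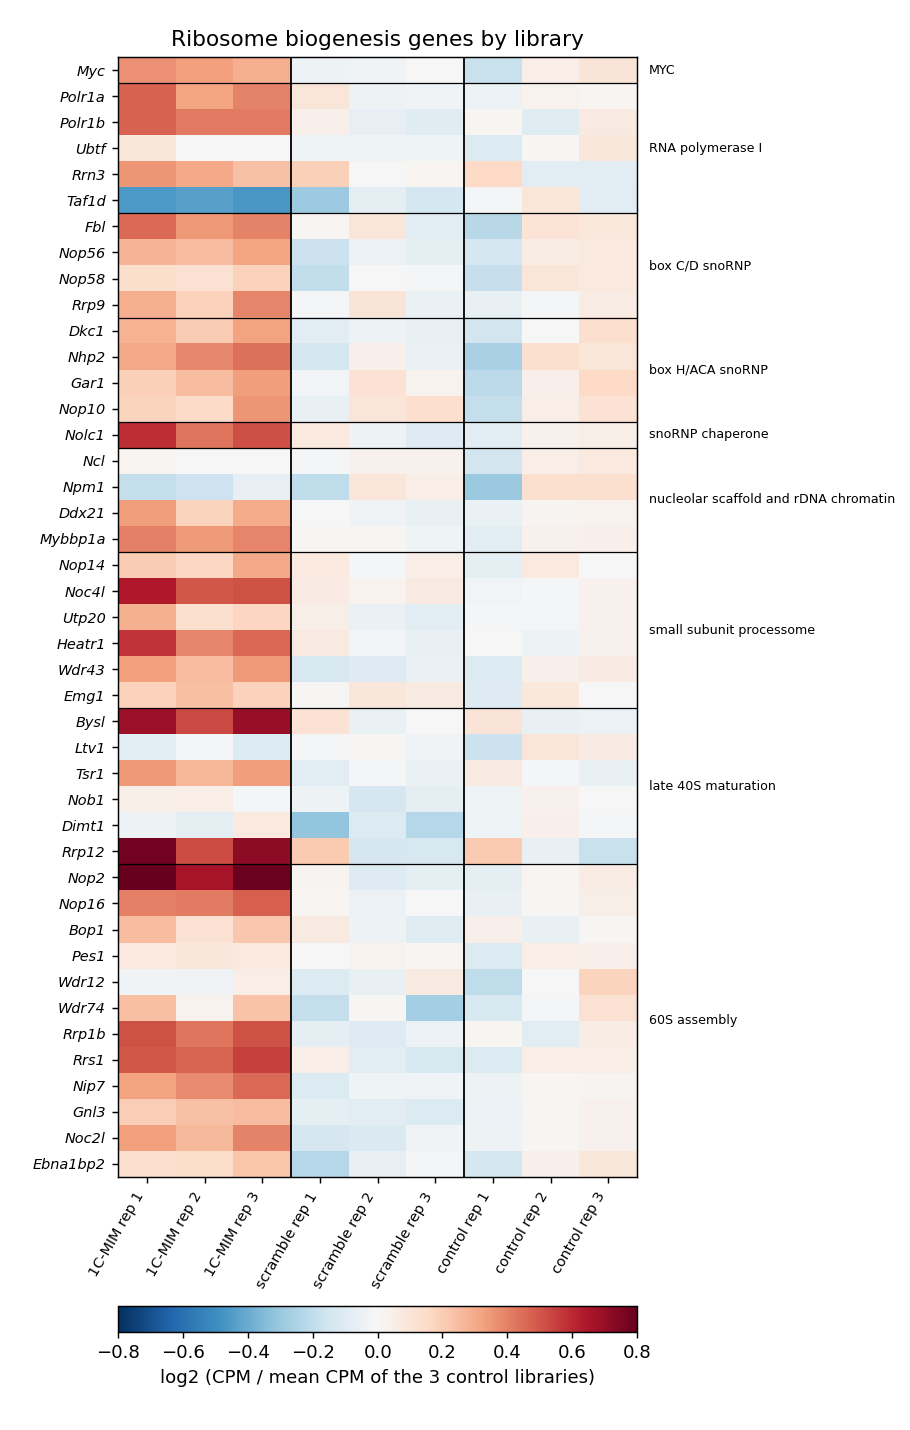
Each row is a gene, grouped by role, and each column a library (1C-MIM, scramble, control); the colour is the log2 difference of that library's CPM from the mean of the control libraries. All 3 1C-MIM libraries lie above the other 6 for 34 of the 43 genes, and below them for Taf1d.

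Scramble and control differed in none of the 43 genes by edgeR, and in 0 of all tested genes (0% called). DESeq2 called none of the 43 genes and 30 of all genes, and limma-voom called none. At an unadjusted p below 0.05 there were 3 of the 43 genes and 3.44% of all tested genes. These 3 were Dimt1 at -0.22 ± 0.07, Taf1d at -0.17 ± 0.07 and Gnl3 at -0.09 ± 0.04 (log2, SE), all lower in scramble. The libraries of scramble and control did not overlap for 3 genes, Nob1, Dimt1 and Gnl3 (9.09% of all tested genes). The median log2 fold change over the 43 genes was -0.03.

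Myc itself, the transcription factor, rose by a small amount. It stood at 49.1, 47.8 and 46.6 CPM in 1C-MIM, 37.1, 37.3 and 38.1 CPM in scramble, and 33.7, 39.5 and 41 CPM in control. Every 1C-MIM library was above every other library, and the lowest value was that of control replicate 1. The log2 fold change was 0.33 ± 0.07 against control (edgeR adjusted p = 0.0025) and 0.35 ± 0.07 against scramble (edgeR adjusted p = 0.0018).

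Among the genes of RNA polymerase I and its factors, 3 of 5 rose in both comparisons and 1 fell. Polr1a, the largest subunit of the enzyme, had 116, 104 and 110 CPM in 1C-MIM, 89.7, 81.2 and 82.2 CPM in scramble, and 81.0, 85.4 and 84.7 CPM in control. Polr1b, the second-largest subunit, had 27.9, 26.8 and 26.8 CPM in 1C-MIM, 20.7, 19.2 and 18.8 CPM in scramble, and 20.3, 18.8 and 21.1 CPM in control. Neither gene's 1C-MIM libraries overlapped the others. Polr1a rose by 0.39 ± 0.06 against control (edgeR adjusted p = 0.0002) and 0.38 ± 0.06 against scramble, and Polr1b by 0.44 ± 0.06 (edgeR adjusted p = 0.00029) and 0.47 ± 0.07.

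Rrn3, the factor that brings the polymerase to the ribosomal promoter, had 98.6, 95.2 and 90.8 CPM in 1C-MIM, 88.2, 77.3 and 78.0 CPM in scramble, and 86.5, 72.5 and 72.8 CPM in control. The library numbered 1 was the highest in every group, and 1C-MIM did not overlap the others. Rrn3 rose by 0.30 ± 0.08 against control (edgeR adjusted p = 0.0087) and by 0.22 ± 0.08 against scramble (edgeR adjusted p = 0.034). The call against scramble was lost when 1C-MIM replicate 1 (0.20) or 2 (0.22), or scramble replicate 2 (0.19) or 3 (0.20), was left out. Ubtf, which binds and opens the ribosomal DNA, was not called at 0.03 ± 0.05 against control, with 149, 140 and 140 CPM in 1C-MIM, 137 CPM in each scramble library, and 130, 141 and 149 CPM in control.

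Taf1d fell in both comparisons. In human cells its protein is a subunit of the selectivity factor SL1, which recognizes the ribosomal promoter. It stood at 22.6, 23.0 and 22.5 CPM in 1C-MIM, 25.4, 29.6 and 28.2 CPM in scramble, and 30.9, 33.2 and 29.2 CPM in control. The 1C-MIM libraries were the lowest 3, and scramble overlapped control only in the span from 29.2 to 29.6 CPM. The log2 fold change was -0.45 ± 0.07 against control (edgeR adjusted p = 0.00038) and -0.29 ± 0.07 against scramble (edgeR adjusted p = 0.0066).

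Of 11 tested polymerase I genes that were not on the list, 2 rose against control (18.2%, beside 22.9% of all tested genes), 3 rose against scramble (27.3%, beside 22.9%) and none fell. Polr1e, another subunit, was at 0.29 ± 0.09 against control (edgeR adjusted p = 0.02), and Tcof1, the nucleolar protein treacle, at 0.24 ± 0.09 (edgeR adjusted p = 0.04). Against scramble Polr1e rose by 0.24 ± 0.09 (edgeR adjusted p = 0.049) and Tcof1 was not called (0.23 ± 0.09, edgeR adjusted p = 0.051). The subunit gene Polr1d was not called against control (0.15 ± 0.06) and rose against scramble (0.16 ± 0.06, edgeR adjusted p = 0.049). The SL1 gene Taf1b was called in neither, at -0.15 ± 0.07 and -0.08 ± 0.07, and neither was Taf1a. Taf1c, also of SL1, was not called against control (0.22 ± 0.14). It rose against scramble (0.44 ± 0.14, edgeR adjusted p = 0.023), though the libraries overlapped. Taf1a and Taf1c were named after their values were seen.

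**Figure D2:**
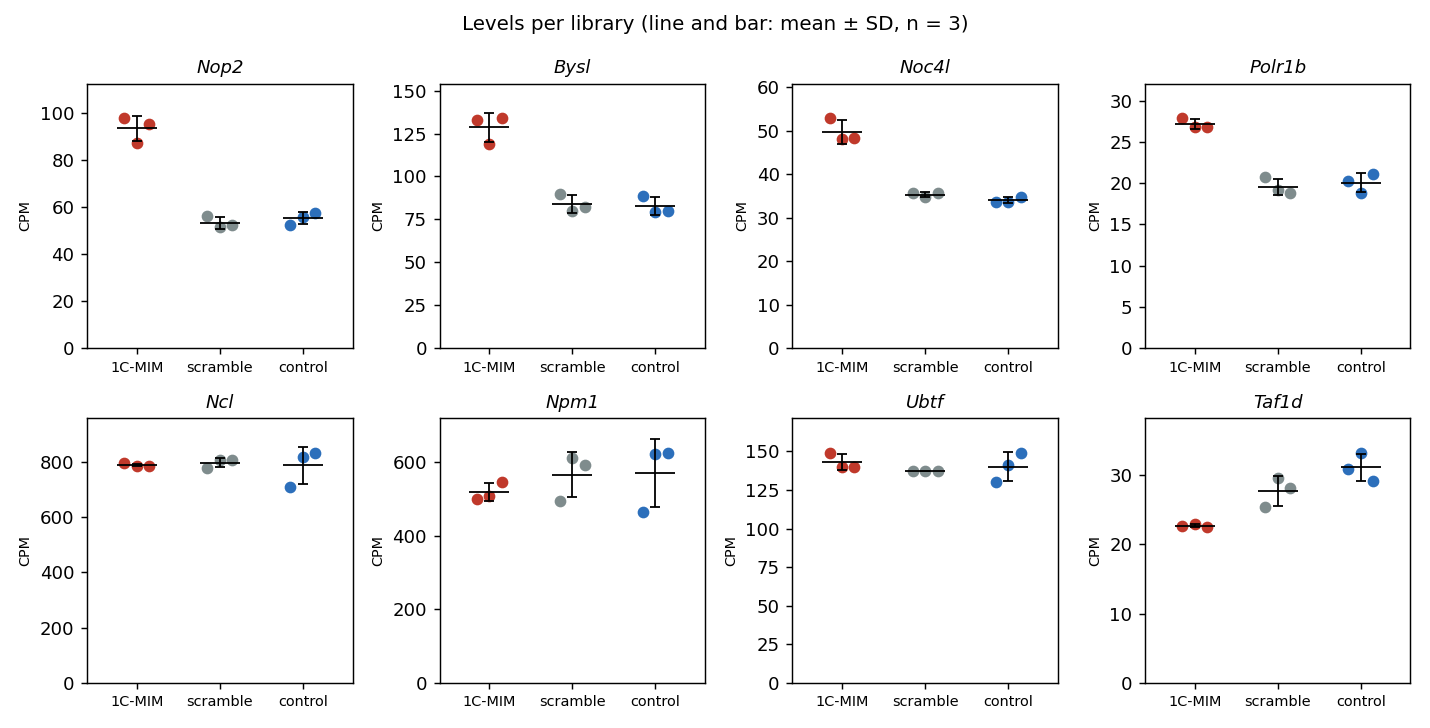
CPM of selected genes in each library (points) with the group mean and SD (n = 3 each), for 1C-MIM, scramble and control; each axis starts at 0. For Nop2 the 3 1C-MIM libraries sit between 87.5 and 97.9 CPM and the other 6 between 51.5 and 57.7 CPM.

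The promoter sequences of 4 genes are shown because these genes stand at different points of the response: Nop2 rose most, Rrn3 is the polymerase I factor with 2 copies of the motif searched, Ltv1 carries the motif and was not called, and Taf1d fell and has none. Each window runs from 250 bases before to 50 bases after the annotated start, 5′ to 3′ on the gene's strand, from RefSeq on build GRCm38.p6. The windows are chr6:125131633-125131932 (plus strand) for Nop2, chr16:13780449-13780748 (plus) for Rrn3, chr10:13193088-13193387 (minus) for Ltv1 and chr9:15305964-15306263 (plus) for Taf1d. The counts were made on another build, GRCm39, and no position was converted. Capitals mark CACGTG, the E-box known to be bound by MYC with its partner MAX, which reads the same on both strands.
Nop2: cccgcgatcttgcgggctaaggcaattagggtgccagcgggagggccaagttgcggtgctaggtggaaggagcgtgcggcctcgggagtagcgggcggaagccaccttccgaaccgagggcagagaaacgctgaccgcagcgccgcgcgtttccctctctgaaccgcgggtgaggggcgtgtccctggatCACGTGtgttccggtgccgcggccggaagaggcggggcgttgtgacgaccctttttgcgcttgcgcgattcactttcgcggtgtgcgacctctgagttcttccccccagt
Rrn3: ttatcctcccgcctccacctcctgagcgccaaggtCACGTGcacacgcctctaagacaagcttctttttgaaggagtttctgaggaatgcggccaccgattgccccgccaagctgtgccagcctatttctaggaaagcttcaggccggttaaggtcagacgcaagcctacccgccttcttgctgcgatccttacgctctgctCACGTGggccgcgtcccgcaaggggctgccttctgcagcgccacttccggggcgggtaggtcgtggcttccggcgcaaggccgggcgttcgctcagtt
Ltv1: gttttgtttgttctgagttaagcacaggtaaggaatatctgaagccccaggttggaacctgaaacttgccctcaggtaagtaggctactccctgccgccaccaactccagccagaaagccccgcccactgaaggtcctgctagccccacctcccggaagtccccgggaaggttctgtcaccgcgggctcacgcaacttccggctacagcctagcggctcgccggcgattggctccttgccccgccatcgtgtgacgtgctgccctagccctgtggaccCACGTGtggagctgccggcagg
Taf1d: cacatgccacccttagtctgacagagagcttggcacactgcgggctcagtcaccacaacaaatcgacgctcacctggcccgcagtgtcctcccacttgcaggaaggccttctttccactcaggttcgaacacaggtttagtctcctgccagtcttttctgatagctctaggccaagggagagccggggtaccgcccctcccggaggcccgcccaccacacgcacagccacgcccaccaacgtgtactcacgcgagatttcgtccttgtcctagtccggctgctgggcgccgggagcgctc

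A promoter window was found for 38 of the 44 listed genes. CACGTG was present in 9 of these 38 (23.7%), against 8.09% of all 27025 genes with a window and 11.6% of the 10320 tested genes with one. Counted by window, since some genes have several starts, it was in 9 of 47 (19.1%), against 7.15% of 32851. The genes were Nop2, Rrn3, Mybbp1a, Pes1, Tsr1, Utp20, Utp4, Wdr43 and Ltv1. Of the 8 tested under those symbols 6 rose against control, where 22.9% of all tested genes rose, and the median log2 fold change was 0.30. Of the 29 tested without the motif 19 rose, with a median of 0.27. Against scramble these medians were 0.30 and 0.32. A match is a description of these letters, not a binding site.

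Of the box C/D snoRNP genes, whose particles guide methylation of ribosomal RNA, 3 of 4 rose against control and 4 of 4 against scramble. Fbl, the methyltransferase fibrillarin, had 59.7, 55.5 and 57.4 CPM in 1C-MIM, 44, 46.7 and 41.2 CPM in scramble, and 37.4, 47.1 and 46.3 CPM in control. No 1C-MIM library overlapped the others, and control replicate 1 was the lowest. Fbl rose by 0.40 ± 0.08 against control (edgeR adjusted p = 0.0026) and 0.39 ± 0.08 against scramble.

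The core protein Nop56 had 120, 118 and 124 CPM in 1C-MIM, 88.3, 96.6 and 94.2 CPM in scramble, and 90.3, 104 and 105 CPM in control, and rose by 0.28 ± 0.06 and 0.37 ± 0.06. Rrp9, a protein of the U3 particle, rose by 0.29 ± 0.08 against control and 0.28 ± 0.08 against scramble, with 18.9 to 21.8 CPM in 1C-MIM, 16.0 to 17.8 CPM in scramble and 15.9 to 17.3 CPM in control. Nop58, the partner of Nop56, was not called against control (0.15 ± 0.08, edgeR adjusted p = 0.15). With the replicate number as a block it was (edgeR adjusted p = 0.035), and without control replicate 1 the value was 0.06 (edgeR adjusted p = 0.43). It rose by 0.21 ± 0.08 against scramble (edgeR adjusted p = 0.043). That call was lost in turn without any 1 of the 6 libraries compared, where the value ran from 0.15 without scramble replicate 1 to 0.25 without scramble replicate 2.

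The box H/ACA particle, which makes pseudouridine, has 4 protein genes, of which 3 rose against control and 2 against scramble. Dkc1, the pseudouridine synthase dyskerin, had 59.9, 57.1 and 62.0 CPM in 1C-MIM, 46.5, 48.1 and 47.5 CPM in scramble, and 44.7, 49.4 and 54.4 CPM in control. Its 1C-MIM libraries were above all the others, with a log2 fold change of 0.27 ± 0.07 against control (edgeR adjusted p = 0.0077) and 0.33 ± 0.07 against scramble. Nhp2, a core protein, rose by 0.38 ± 0.09 and 0.43 ± 0.09, with 55.3 to 60.7 CPM in 1C-MIM, 40.6 to 46 CPM in scramble and 37.4 to 49 CPM in control.

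The calls on the remaining core proteins were less firm. Gar1 was at 0.25 ± 0.09 against control (edgeR adjusted p = 0.035) and 0.22 ± 0.09 against scramble (edgeR adjusted p = 0.067). Its call against control was lost without control replicate 1, where the value was 0.16, and likewise without control replicate 2 (0.27), 1C-MIM replicate 2 (0.26) or 3 (0.22), or scramble replicate 3 (0.25). Nop10 was not called, at 0.23 ± 0.09 (edgeR adjusted p = 0.052) and 0.17 ± 0.09 (edgeR adjusted p = 0.13). With the replicate block Nop10 was called against control (edgeR adjusted p = 0.0051), and without control replicate 1 the value was 0.14 (edgeR adjusted p = 0.13). For both genes the 1C-MIM libraries still lay above all 6 others.

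Nolc1, a chaperone of snoRNPs in the nucleolus and Cajal bodies, had 142, 127 and 135 CPM in 1C-MIM, 99.7, 91.7 and 87.9 CPM in scramble, and 89.1, 96.8 and 97.7 CPM in control. The groups were well apart, with 127 CPM as the lowest 1C-MIM value and 99.7 CPM as the highest of the others. It rose by 0.51 ± 0.06 against control (edgeR adjusted p = 7.8e-05) and 0.53 ± 0.06 against scramble (edgeR adjusted p = 6.5e-05). Genes that assemble snoRNPs but were not on the list went both ways. Against control 4 of 10 rose (40%) and 2 fell, where 22.9% of all tested genes rose and 24.3% fell. Against scramble 3 rose and 2 fell, beside 22.9% and 23.2% of all tested genes. The medians over these 10 genes were -0.02 and 0.02 on the log2 scale. Nufip1 rose by 0.26 ± 0.07 against control. Pih1d1, a subunit of the R2TP chaperone complex, fell. It had 20.3, 19.6 and 20.3 CPM in 1C-MIM, 22.3 to 25.5 CPM in scramble and 22.8 to 26.7 CPM in control.

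The 2 most abundant of the 43 transcripts did not rise. By the authors' TPM, which divides by transcript length, Npm1 was highest in control at 555 ± 74 TPM and Ncl next at 132 ± 7.4 TPM (SD, n = 3), and Polr1b was lowest at 6.97 ± 0.52 TPM. Ncl, the nucleolar protein nucleolin, had 794, 786 and 786 CPM in 1C-MIM, 779, 806 and 805 CPM in scramble, and 710, 818 and 832 CPM in control. The groups overlapped, with log2 fold changes of 0.00 ± 0.06 against control (edgeR adjusted p = 0.97) and -0.01 ± 0.06 against scramble (edgeR adjusted p = 0.87).

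Npm1, the histone and ribosome chaperone nucleophosmin, had 501, 509 and 546 CPM in 1C-MIM, 495, 610 and 593 CPM in scramble, and 465, 623 and 625 CPM in control. In scramble and control the library numbered 1 was well below the other 2, and the groups overlapped. Npm1 was not called (-0.14 ± 0.12 against control, edgeR adjusted p = 0.35). Without control replicate 1 it was lower in 1C-MIM by edgeR (-0.27, adjusted p = 0.011), and without the 3 libraries numbered 1 it was lower than control (-0.24, edgeR adjusted p = 1.7e-05) and than scramble (-0.19, edgeR adjusted p = 0.00027).

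The other 2 genes placed with nucleolar chromatin rose. The RNA helicase Ddx21 had 241, 216 and 235 CPM in 1C-MIM, 191, 187 and 183 CPM in scramble, and 184, 194 and 195 CPM in control, and rose by 0.27 ± 0.05 and 0.30 ± 0.05. Mybbp1a, a nucleolar protein first found as a partner of MYB, had 258, 247 and 256 CPM in 1C-MIM, 196, 197 and 190 CPM in scramble, and 183, 200 and 201 CPM in control. It rose by 0.38 ± 0.05 in both comparisons (edgeR adjusted p = 0.00012 in each).

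All 6 listed genes of the small subunit processome found in the tables rose against control, and 5 rose against scramble. Noc4l, whose yeast counterpart works as a pair with Nop14, had 52.9, 48 and 48.4 CPM in 1C-MIM, 35.6, 34.7 and 35.7 CPM in scramble, and 33.5, 33.7 and 34.8 CPM in control. Heatr1, the counterpart of yeast Utp10, had 79.8, 70.1 and 73.5 CPM in 1C-MIM, 56.2, 52.8 and 51.4 CPM in scramble, and 53.7, 52.0 and 54.9 CPM in control. Both were clear of the other libraries, with log2 fold changes against control of 0.55 ± 0.05 for Noc4l (edgeR adjusted p = 1.6e-05) and 0.48 ± 0.06 for Heatr1 (edgeR adjusted p = 8.6e-05). Against scramble they were 0.49 ± 0.05 and 0.48 ± 0.06.

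Wdr43, a WD-repeat protein of the processome, rose by 0.31 ± 0.05 against control and 0.40 ± 0.05 against scramble, with 103 to 110 CPM in 1C-MIM, 79.4 to 83.6 CPM in scramble and 80.5 to 90.8 CPM in control. The other 3 rose less. Nop14 was at 0.22 ± 0.06 and Utp20, a large scaffold protein, at 0.20 ± 0.05 against control. Emg1, which methylates the small subunit RNA, was at 0.20 ± 0.06 against control (edgeR adjusted p = 0.011) and was not called against scramble (0.14 ± 0.06, edgeR adjusted p = 0.053). Nop14 rose by 0.18 ± 0.06 against scramble, a call lost without 1C-MIM replicate 3 (0.14) or scramble replicate 2 (0.16) or 3 (0.19).

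Of 38 other tested processome genes, 20 rose (52.6%) and 3 fell against control, and 19 rose (50%) and 3 fell against scramble. Over all tested genes 22.9% rose in each comparison, and 24.3% and 23.2% fell. Dhx37, an RNA helicase, had 43.3, 38.7 and 42.8 CPM in 1C-MIM, 25.6, 24.9 and 25.4 CPM in scramble, and 24.3, 26.3 and 26 CPM in control, a rise of 0.70 ± 0.06 against control (edgeR adjusted p = 7.6e-06). Wdr36 went the other way, with 96.3, 93.1 and 102 CPM in 1C-MIM, 151, 150 and 153 CPM in scramble, and 135, 151 and 148 CPM in control (-0.58 ± 0.05, edgeR adjusted p = 1.1e-05). In neither gene did 1C-MIM overlap the other groups. Cirh1a, the older symbol of Utp4, rose by 0.23 ± 0.07, with 51.1, 45.5 and 46.2 CPM in 1C-MIM, 42.1, 39.0 and 40.9 CPM in scramble, and 39.8, 43.5 and 38.2 CPM in control.

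The 6 genes of late small subunit maturation were split, with 3 rising against control and 3 not called. Bysl, or bystin, had 133, 119 and 134 CPM in 1C-MIM, 89.7, 79.6 and 82.5 CPM in scramble, and 88.7, 79.4 and 79.9 CPM in control. Rrp12, known in yeast for export of both subunits, had 58.7, 49.4 and 56.4 CPM in 1C-MIM, 39.7, 31.3 and 31.5 CPM in scramble, and 39.7, 33.0 and 30.4 CPM in control. For both genes 1C-MIM was above every other library, and the library numbered 1 was the highest of scramble and of control.

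Bysl rose by 0.64 ± 0.07 against control (edgeR adjusted p = 3.1e-05) and 0.61 ± 0.07 against scramble, and Rrp12 by 0.67 ± 0.12 (edgeR adjusted p = 0.0011) and 0.68 ± 0.12. Tsr1, a GTPase-like factor of the maturing subunit, rose by 0.32 ± 0.05 and 0.36 ± 0.05, with 126, 119 and 125 CPM in 1C-MIM, 93.6, 98.1 and 95.7 CPM in scramble, and 104, 98.5 and 95.2 CPM in control. The other 3 were not called against control. Nob1, the nuclease that makes the final cut of the small subunit RNA, was at 0.02 ± 0.05, and Ltv1, an assembly factor known best in yeast, at -0.07 ± 0.07.

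Ltv1 had 40.1, 42.2 and 39.6 CPM in 1C-MIM, 42.4, 42.9 and 41.9 CPM in scramble, and 37.9, 45.6 and 44.6 CPM in control, with control replicate 1 the lowest of all. Without that library it was lower in 1C-MIM than in control (-0.15, edgeR adjusted p = 0.026). Dimt1, which dimethylates the small subunit RNA, was at -0.01 ± 0.07 against control and 0.21 ± 0.07 against scramble (edgeR adjusted p = 0.043). It had 17.8, 17.3 and 19.3 CPM in 1C-MIM, 14.7, 17.0 and 15.6 CPM in scramble, and 17.9, 18.8 and 18.2 CPM in control, so that scramble was the group that stood low. The call on Dimt1 was lost without any 1 of control replicates 2 or 3, 1C-MIM replicates 1 or 3, or scramble replicates 1 or 3, at values of 0.16 to 0.22, and DESeq2 did not call it. Of 11 other tested genes listed with this step, not all specific to it, 4 rose against control (36.4%) and none fell. Over all tested genes 22.9% rose. The 4 included Nol8 (0.46 ± 0.06), which is not specific to this step, and the kinase Riok2 (0.29 ± 0.05).

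The large subunit assembly genes formed the longest group, and 8 of 12 rose against control and 10 of 12 against scramble. Nop2, which methylates a cytosine of the large subunit RNA, moved most of all 43 genes. It had 97.9, 87.5 and 95.2 CPM in 1C-MIM, 56.2, 51.5 and 52.4 CPM in scramble, and 52.5, 55.8 and 57.7 CPM in control. The lowest 1C-MIM library was 87.5 CPM and the highest of the others 57.7 CPM. Nop2 rose by 0.76 ± 0.06 against control (1.69-fold, edgeR adjusted p = 5.1e-06) and 0.81 ± 0.06 against scramble (1.75-fold, edgeR adjusted p = 3.7e-06). Its promoter window, printed above, holds CACGTG upstream of the start.

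Rrs1, which in yeast helps to bring in the 5S particle, had 47.1, 46.2 and 48.7 CPM in 1C-MIM, 34.7, 31.3 and 30.6 CPM in scramble, and 30.9, 34.6 and 34.7 CPM in control. Rrp1b, a nucleolar assembly factor, had 46.1, 43.6 and 46.2 CPM in 1C-MIM, 30.7, 30.1 and 31.4 CPM in scramble, and 32.7, 30.6 and 33.8 CPM in control. Both were clear of the other groups. Rrs1 rose by 0.50 ± 0.07 against control (edgeR adjusted p = 0.00012) and 0.55 ± 0.07 against scramble, and Rrp1b by 0.48 ± 0.05 (edgeR adjusted p = 4.4e-05) and 0.56 ± 0.05.

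Rises of 0.43, 0.39 and 0.33 against control were measured for Nop16, Nip7 and Noc2l, assembly factors of the nucleolus, and 0.22 ± 0.04 for Gnl3, the GTPase nucleostemin. Against scramble these were 0.44, 0.44, 0.42 and 0.32. Ebna1bp2, an assembly factor, was at 0.17 ± 0.07 against control (edgeR adjusted p = 0.072, and 0.0096 with the replicate block) and rose by 0.27 ± 0.07 against scramble (edgeR adjusted p = 0.0098). Without control replicate 1 its value against control was 0.10 (edgeR adjusted p = 0.19). Wdr74, a WD-repeat factor, was not called against control (0.17 ± 0.10). It rose by 0.32 ± 0.10 against scramble (edgeR adjusted p = 0.022), a call lost without 1C-MIM replicate 1 (0.28) or 3 (0.29), or scramble replicate 1 (0.29) or 3 (0.26).

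Pes1, Bop1 and Wdr12 encode the PeBoW complex, and their transcripts did not give the same result. Bop1 had 106, 97.2 and 104 CPM in 1C-MIM, 94.0, 87.1 and 83.8 CPM in scramble, and 92.2, 86.0 and 90.2 CPM in control, and rose by 0.19 ± 0.06 against control (edgeR adjusted p = 0.015). The call was lost without control replicate 2 (0.16) or 1C-MIM replicate 1 (0.17) or 3 (0.18). Pes1 had 115, 116 and 115 CPM in 1C-MIM, 109, 111 and 110 CPM in scramble, and 101, 113 and 112 CPM in control, and was not called at 0.08 ± 0.05. Wdr12 was at 0.00 ± 0.09 with overlapping groups. Whether the 3 differ from each other was not tested.

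Of 48 other tested large subunit genes, 32 rose (66.7%) and 1 fell against control, and 36 rose (75%) and 1 fell against scramble. Over all tested genes 22.9% rose in each comparison, and 24.3% and 23.2% fell. The helicase gene Ddx51 had 60.1, 64.0 and 58.0 CPM in 1C-MIM, 35.3, 34.4 and 34.6 CPM in scramble, and 37.3, 36.6 and 35.9 CPM in control (0.73 ± 0.05, edgeR adjusted p = 2.3e-06). Ccdc86 was at 0.71 ± 0.07, Ppan at 0.54 ± 0.07 and the SUMO protease Senp3 at 0.47 ± 0.04 against control. The 1 that fell was the ATPase gene Nvl (-0.40 ± 0.05), named after its value was seen.

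**Figure D3:**
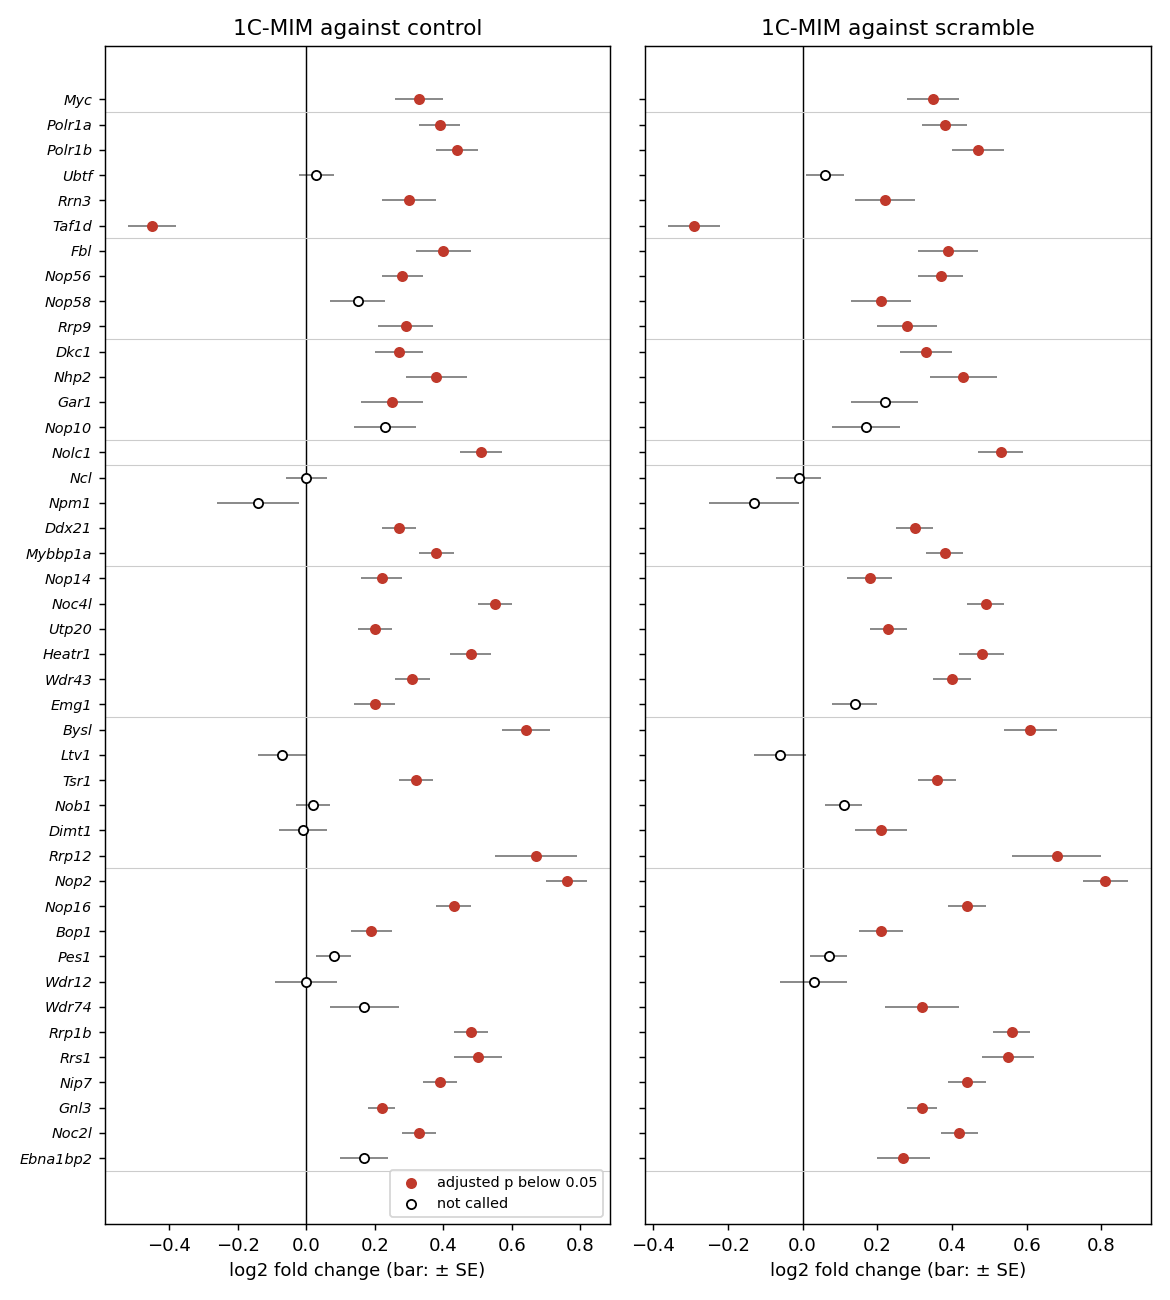
Log2 fold change of each gene with its SE (bars), 1C-MIM against control on the left and against scramble on the right, in order of role; filled points are called at an adjusted p below 0.05. Nop2 is farthest to the right in both panels (0.76 and 0.81), and Taf1d is the only filled point left of 0.

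Over the 6 lists of further ribosome biogenesis genes, 69 of 132 rose and 8 fell against control (52.3% rose), with a median log2 fold change of 0.18. Over all tested genes 22.9% rose and 24.3% fell against control. Against scramble 73 rose and 7 fell, with a median of 0.21, and between scramble and control none was called by edgeR, with 1 at an unadjusted p below 0.05. Without control replicate 1, 14 fell against control. The RNA exosome, which trims the precursor, was one of these lists: 7 of 14 rose (50%) and 2 fell against control. Its nucleases Dis3 (0.46 ± 0.06) and Exosc10 (0.37 ± 0.05) were among those that rose.

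**Figure D4:**
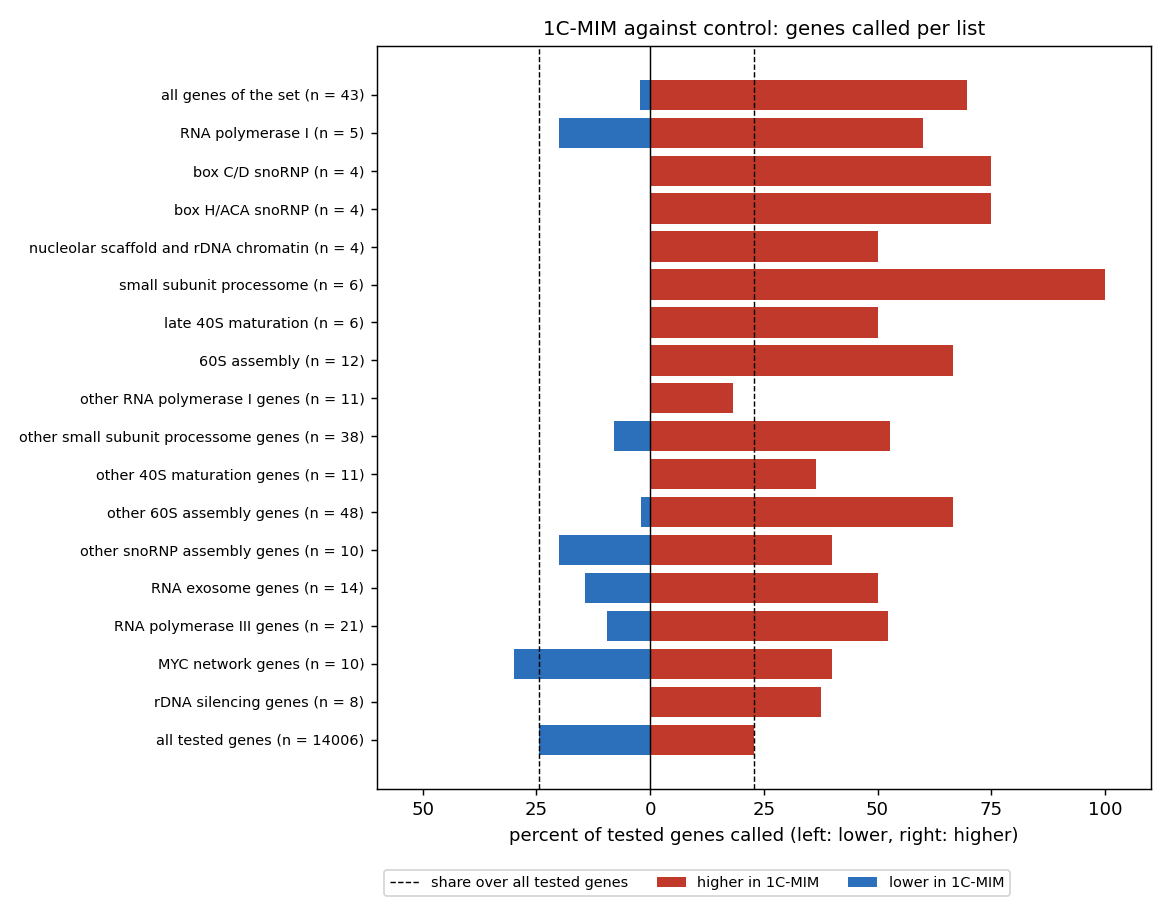
Share of tested genes called higher or lower in 1C-MIM against control, by role and list, with the number tested beside each name. The share higher was 69.8% over the 43 genes and 22.9% over all tested genes. The roles with a single gene (Myc and Nolc1) and the ribosomal RNA row are not shown.

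Other genes of the MYC network changed in opposite directions. Against control 4 of 10 tested rose and 3 fell, where 22.9% of all tested genes rose and 24.3% fell. Mlx rose by 0.52 ± 0.06 against control (edgeR adjusted p = 6.8e-05) and 0.53 ± 0.06 against scramble. Mycl, a relative of Myc, had 82.1, 86.0 and 91.2 CPM in 1C-MIM, 32.9, 30.1 and 25.5 CPM in scramble, and 27.0, 24.4 and 28.0 CPM in control. No library of 1C-MIM came near the others, and Mycl rose by 1.71 ± 0.09 against control (edgeR adjusted p = 4.4e-07) and 1.55 against scramble, more than any of the 43 genes. Genes for repressors that compete for MAX went both ways, with Mxd3, Mxi1 and Mnt lower, Mxd4 higher and Mxd1 not called (0.11 ± 0.25). Mxd3 averaged 33.5 ± 4.88 CPM in 1C-MIM, 58.9 ± 5.21 CPM in scramble and 58.8 ± 7.61 CPM in control (SD, n = 3 each), and fell by 0.81 ± 0.12 on the log2 scale against control (SE, edgeR adjusted p = 0.00041). Mxi1 was at -0.41 ± 0.06 and Mnt at -0.18 ± 0.05, and Mxd4 rose by 0.24 ± 0.05 against control and 0.20 ± 0.05 against scramble. Mnt, Mxd4 and Mxd1 were named after their values were seen.

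The product of RNA polymerase I was measured only through the row for the 45S precursor, Rn45s. Ribosomal RNA is largely removed or missed in mRNA libraries. Rn45s had 1520, 1510 and 1860 CPM in 1C-MIM, 1540, 1610 and 1780 CPM in scramble, and 1840, 4500 and 1500 CPM in control. Control replicate 2 stood far above the rest, and the groups overlapped. It was not called (-0.68 ± 0.39 against control, edgeR adjusted p = 0.19, and -0.01 against scramble, edgeR adjusted p = 0.98).

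Some methyltransferases of ribosomal RNA, of which 4 are among the 43 genes, were grouped from the lists used here after their values were seen. They use the methyl donor that the one-carbon network supplies. Of 8 tested, 5 rose against control: Nop2, Fbl, Ftsj3 (0.27 ± 0.05), Rrp8 (0.22 ± 0.05) and Emg1. The share that rose was 22.9% of all tested genes and 69.8% of the 43 genes. Enzymes outside these lists were not counted, and a link to methylation was not tested. Against scramble 5 of 8 rose as well, with Dimt1 called and Emg1 not. Against control Dimt1, Mettl5 (-0.03 ± 0.08) and Zcchc4 (-0.06 ± 0.09) were not called. Mettl5 had 36.6, 39.7 and 42.8 CPM in 1C-MIM, 34.7, 40.1 and 40.7 CPM in scramble, and 37.3, 42 and 42.2 CPM in control, and the groups overlapped.

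By the GENCODE vM21 annotation on GRCm38, 8 of the 43 genes hold snoRNA genes inside their span on the same strand, with 8 snoRNAs in Taf1d, 5 in Nop56, 4 in Nop58, 3 each in Ncl, Wdr43 and Gnl3, 2 in Tsr1 and 1 in Dkc1. Of these host genes 5 rose and 1 fell against control, with a median log2 fold change of 0.24, and 25 of the 35 others rose, with a median of 0.30. Over all tested genes 22.9% rose in each comparison, and 24.3% fell against control. Against scramble 6 of 8 hosts and 26 of 35 others rose, and both medians were 0.32.

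Some values are uncertain because of shared sequence. In the same annotation 15 of the listed genes share exon bases with a gene on the opposite strand, and no label or header tells if reads were counted by strand. The largest overlaps were 1159 of 3389 exon bases of Tsr1 with Srr, 765 of 2051 of Dimt1 with Kif2a, 598 of 2867 of Noc2l with Samd11, 361 of 3854 of Bysl with Ccnd3 and 190 of 1769 of Taf1d with 4931406C07Rik. Near-identical copies elsewhere in the transcriptome (at least 95% identity over at least 200 bases) were found for 8 genes: Npm1 and Nop56 have 4 each, Wdr12 3, Pes1 2, and Ddx21, Dimt1, Fbl and Taf1d 1 each.

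All 8 markers of dividing cells (Mki67, Top2a, Ccnb1, Cdk1, Bub1, Aurkb, Plk1, Cenpe) fell in 1C-MIM, where 30 of the 43 genes rose against control, with a median log2 fold change of -1.05 against control, and their summed level was 652 to 806 CPM in 1C-MIM, 1330 to 1580 CPM in scramble and 1240 to 1620 CPM in control. Of 6 markers of undifferentiated myoblasts and reserve cells 4 rose against control (Pax7, Notch3, Vcam1 and Spry1), where 22.9% of all tested genes rose and 24.3% fell. Cd34 fell (-1.36 ± 0.09) and Myf5 was not called (-0.02 ± 0.08). The sums over the 6 were 842 to 959 CPM in 1C-MIM, 613 to 632 CPM in scramble and 562 to 584 CPM in control. Notch3 and Vcam1 had the highest levels of the 6 in 1C-MIM, with means of 428 and 312 CPM. Of 9 genes listed as muscle fibre markers 3 rose (Myog, Myod1 and Ckm) and 1 fell (Mylpf) against control, where 22.9% of all tested genes rose. Myh3, Myh8, Acta1, Des and Tnnt3 were not called. The sums over the 9 overlapped, at 8760 to 10500 CPM in 1C-MIM, 7350 to 9290 CPM in scramble and 6560 to 10200 CPM in control. The part of these marker lists in the changes of the 43 genes was not tested.

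Among markers of other cell types, none of 5 adipocyte markers had more than 2 counts in any library, and Cidec had 0 in all. Of the immune markers Cd3e had 0 counts in every library and Ptprc at most 2, and of the endothelial markers Kdr had at most 1, while Cd68 and Tek had at most 75 and 30. Tek rose by 1.63 ± 0.32 against control (edgeR adjusted p = 0.0017). Of the osteoblast markers Ibsp had at most 1 count, Sp7 at most 23 and Bglap at most 20, and the summed level of 86.4 to 96.9 CPM in 1C-MIM, 87.5 to 92.8 CPM in scramble and 87.1 to 90.7 CPM in control came almost wholly from Runx2 (63.1 to 68.2 CPM over all libraries) and Dmp1 (21.7 to 31.1 CPM), which were not called. Sp7 (-3.37 ± 0.55, edgeR adjusted p = 0.0005) and Bglap (-1.87 ± 0.69, edgeR adjusted p = 0.043) fell against control. Per library, the median log2 difference of the 43 genes from the control mean was 0.29, 0.24 and 0.33 in 1C-MIM, -0.01, -0.03 and -0.04 in scramble, and -0.07, 0.03 and 0.05 in control. For the dividing cell markers it was -0.86, -1.0 and -1.23 in 1C-MIM, -0.15, 0.11 and 0.11 in scramble, and -0.27, 0.13 and 0.13 in control.

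**Figure D5:**
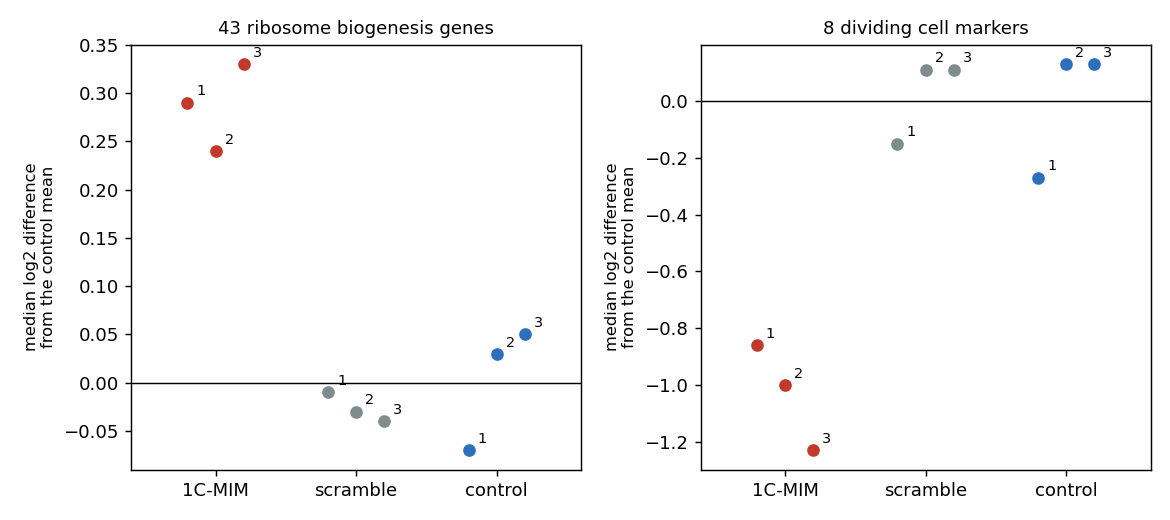
Median log2 difference from the mean of the control libraries in each library (numbered points), for the 43 ribosome biogenesis genes on the left and the 8 dividing cell markers on the right; the axes differ. The 3 1C-MIM libraries lie at 0.24 to 0.33 on the left and at -1.23 to -0.86 on the right, apart from the other 6 in both.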

How the data were processed

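RNA sequencing counts were analysed for 9 libraries in 3 groups of 3. The submitters' processing notes name the build GRCm39 and, without roles, the aligner STAR, the quantifiers Salmon 1.5.2, StringTie 2.2.1 and featureCounts of Subread 2.0.1, DESeq2 1.28.0, and the utilities Trim Galore 0.6.7, bedtools 2.30.0, Picard 2.27.4 and SAMtools 1.15.1. Per the file headers, the deposited tables list 33984 transcripts with their raw count, TPM and FPKM. The authors' counts were tested, the authors' TPM values served only to order levels between genes, and the deposited FPKM values were not used. Strand use in counting is not stated.

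Each gene was represented by its transcript with the highest mean count, since transcripts of a gene share counts. After edgeR's filterByExpr, 14006 genes were fitted in 1 model over all 9 libraries (edgeR 4.0.16, limma 3.58.1, R 4.3.3; TMM normalization, robust quasi-likelihood test, Benjamini-Hochberg adjustment over all genes). The 10057 genes left out held 0.028% of the counts. The common biological coefficient of variation was 0.0842. Library differences from the control mean used log2(CPM + 0.5). The steps were tested on simulated data.

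The genes and lists were chosen with earlier results of these data known. All listed genes may be named, and up to 4 genes with the smallest p against control from each further list. Alternatives were a replicate block, limma-voom, DESeq2 1.42.0, fits of only the groups compared, other filters and scalings, each library or the 3 numbered 1 left out, a threshold of 0.01, a mean over transcripts, and Rn45s removed. Same-numbered libraries deviated together most in scramble and control (r = 0.75, 0.52 and 0.44 across genes). The values were lower in 1C-MIM and control (0.26, 0.18 and 0.12) and in 1C-MIM and scramble (0.27, 0.19 and 0.04). This pairing comes from the data, not the labels, and some libraries of unlike number correlated as much (control replicate 2 with 1C-MIM replicate 3 at 0.19, control replicate 3 with scramble replicate 2 at 0.51). Fold changes are from the fit without the block, and the blocked value is added where it changes a call against control.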

Additional observations from a re-analysis of the deposited data

How the results depend on the processing

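No call on the 43 genes reversed under any of the 22 alternatives, and 27 of 31 calls against control and 27 of 33 against scramble were kept under every one. Leaving out each library in turn gave 28 to 32 genes higher and 1 to 3 lower against control, and 27 to 35 higher and 1 lower against scramble. The median log2 fold change then ran from 0.24 to 0.31 against control, from 0.30 to 0.35 against scramble and from -0.07 to 0 for scramble against control, where no gene was called. Among the further pathway genes these omissions gave 51 to 65 higher and 6 to 14 lower against control, and 54 to 80 higher and 3 to 11 lower against scramble, with 3 without scramble replicate 2, 4 without scramble replicate 3 and 11 without control replicate 1.

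With the 3 libraries numbered 1 left out, 3 of the 43 genes were lower against control (Taf1d, Npm1, Ltv1) and 2 against scramble (Taf1d, Npm1), the median against control was 0.22, and 16 and 12 further pathway genes were lower against control and scramble. Without control replicate 1 the same 3 genes were lower against control. With library size alone the median against control was 0.23, and 14 and 11 further genes were lower. At an adjusted p below 0.01, 45 further genes were higher against control and 3 lower against scramble. The cause of these shifts was not tested. With the replicate number as a block, 33 genes were higher and 1 lower against control, and 35 and 1 against scramble, where Gar1, Nop10 and Emg1 were added. The block changed no other call against scramble, lost none and called none between scramble and control.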

Other observations

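RNA polymerase III makes transfer RNAs and the 5S ribosomal RNA. Of 21 tested genes for its subunits, its factors and its repressor Maf1, 11 rose and 2 fell in 1C-MIM, both against control and against scramble. In each comparison 22.9% of all tested genes rose. Polr3a, the largest subunit, had 45.9, 44.4 and 46.3 CPM in 1C-MIM, 35.8, 31.5 and 32.0 CPM in scramble, and 37.9, 31.7 and 33.4 CPM in control. Its 1C-MIM libraries lay above all the others, a log2 fold change of 0.41 ± 0.07 against control (SE, edgeR adjusted p = 0.001). The repressor gene Maf1 was among the 11 and rose by 0.24 ± 0.04 (edgeR adjusted p = 0.0011), with 96.3 to 103 CPM in 1C-MIM, 83.1 to 86.9 CPM in scramble and 81.9 to 84.7 CPM in control. Bdp1 (-0.28 ± 0.06) and Gtf3c3 (-0.17 ± 0.06), named after their values were seen, fell against control.

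Of 8 genes listed for acting on ribosomal DNA chromatin, not all of them silencers, 3 rose (37.5%) and none fell against control. Over all tested genes 22.9% rose and 24.3% fell. The 3 listed genes that rose were the histone demethylase gene Kdm2b (0.42 ± 0.06), Baz2a (0.26 ± 0.07), the large subunit of the nucleolar remodelling complex, and Rrp8. Baz2a had 126, 128 and 126 CPM in 1C-MIM, 108, 104 and 104 CPM in scramble, and 121, 98.3 and 97.8 CPM in control, where control replicate 1 was close to the 1C-MIM libraries.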
